A study of Mus musculus with 6 samples.

Results

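The Hox cluster genes encode homeodomain transcription factors, and 39 of the 34866 genes of the count table belong to them. They were chosen as the protein-coding genes whose GENCODE M21 symbol, matched by Ensembl identifier, is Hox followed by a, b, c or d and a number, a rule that uses no measured value. Their RNA was followed in intestinal adenomas excised from C57BL/6J mice aged 100 to 120 days. The mice carried either Apc1322T/+ or ApcMin/+, with 3 libraries of each, and neither group had a wild-type Apc genotype. Both are germline alleles that truncate the Apc protein, ApcMin leaving the shorter and Apc1322T the longer product, and the RNA-seq comparison asked how far the adenomas of these 2 models differ in expression. A sample was made from a single mouse, as a rule by pooling several RNA extractions. The adenoma RNA is a mixture of tumour epithelium and the stroma, vessels and leukocytes excised with it, and fewer cells of a type cannot be told apart from less RNA per cell in such bulk samples.

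The Hox genes lie in 4 clusters, Hoxa to Hoxd, which arose by duplication of an ancestral cluster, and genes that occupy the same position in different clusters are paralogs and carry the same number. On GRCm38 the Hoxa cluster (11 genes) lies on chromosome 6, and the others span chr11:96194316-96368256 (Hoxb, 10 genes), chr15:102921103-103036852 (Hoxc, 9 genes) and chr2:74668310-74765142 (Hoxd, 9 genes). In the embryo, genes with low numbers are switched on earlier and nearer to the head than genes with high numbers, and the combination that stays active in a cell records its position along the body. In the developing gut, nested Hox domains lie mainly in the mesoderm and mark the future stomach, small intestine, caecum and colon, and the genes with the highest numbers belong to the hindgut. Polycomb complexes keep the genes silent outside their domains, trithorax complexes keep them active, and Cdx factors and retinoic acid help to set the boundaries.

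The libraries held between 23132461 and 33518324 estimated counts, and a total of 10760 of these counts came from Hox genes, between 978 and 2992 per library. CPM denotes counts scaled to a common depth after scaling by the TMM method, and log2 CPM values include a prior count of 2. The lowest detectable signal, taken as 3 counts, corresponded to 0.0838 to 0.143 CPM, a limit that covers counting error only. Of the 39 Hox genes, 20 (51.3%) passed edgeR's filter on low counts and could be tested for genotype, against 68.4% of the 21782 protein-coding genes. Every pair of libraries differed by more than sampling noise, with a chi-square statistic of at least 24.3 per gene with 20 or more counts in the pair. ApcMin replicate 3 stood apart from the other ApcMin libraries in its Hox genes and had the lowest value of the 6 libraries for 13 of the 20 genes tested, and values without it are given for the genes it moved most. Apc itself had a log2 CPM of 6.42, 6.41 and 6.47 in Apc1322T and of 6.82, 6.80 and 6.97 in ApcMin replicates 1, 2 and 3, which checks no label, since both groups carry a mutant allele.

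In the adenomas, Hoxa5 and Hoxa7 in the middle of the Hoxa cluster stood far above every other Hox gene. Per kilobase of merged exons, averaged over the 6 libraries, Hoxa5 (6.14 CPM per kb) and Hoxa7 (5.35 CPM per kb) had the highest levels. Both encode factors of the central group, and Hoxa5 is known for its role in the patterning of lung, gut and mammary gland. Hoxa9 followed at 1.47, Hoxb4 at 1.28 and Hoxa3 at 1.26 CPM per kb. These last 3 genes do not differ beyond the spread of their libraries, which ran from 0.835 to 2.13 for Hoxa9, from 0.778 to 1.96 for Hoxb4 and from 0.862 to 1.76 for Hoxa3. Hoxa5 and Hoxa7 likewise overlapped, from 3.25 to 7.41 and from 3.90 to 7.76 CPM per kb. Hoxa6, which lies between them, had a mean of 0.424 CPM per kb and Hoxa4 of 0.821, both below Hoxb4. When the longest transcript was used as the length, Hoxa7 reached 7.57 CPM per kb and stood above Hoxa5, and Hoxa3 and Hoxa9 rose to 2.93 and 2.54, so that the order among the leading genes depends on the length taken.

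**Figure D1:**
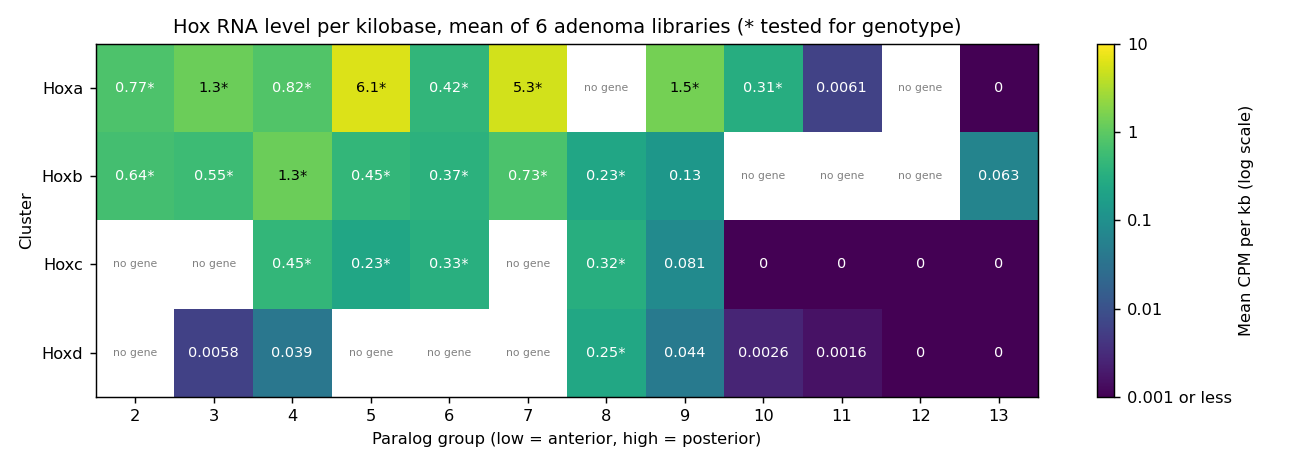
RNA level of the Hox genes of paralog groups 2 to 13, as CPM per kilobase of merged exons averaged over the 6 libraries, with clusters as rows, paralog groups as columns and a log colour scale. The highest levels are those of Hoxa5 (6.14) and Hoxa7 (5.35), the genes at 0 in these groups sit at the posterior ends (Hoxd1, also at 0, belongs to the anterior group not drawn), and asterisks mark the 20 genes tested for genotype.

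In counts, the Hoxa cluster supplied 73.3% of all Hox RNA, the Hoxb cluster 19.6%, the Hoxc cluster 5.72% and the Hoxd cluster 1.43%. Hoxa7 alone made up 24.2% of the Hox counts, Hoxa5 17.5%, Hoxa9 13.2% and Hoxa3 11.5%. The number of genes that passed the filter fell in the same order, with 8 of 11 for Hoxa, 7 of 10 for Hoxb, 4 of 9 for Hoxc and 1 of 9 for Hoxd. The single Hoxd gene was Hoxd8, at 0.250 CPM per kb.

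Along the clusters, the central paralog groups carried most of the RNA and the posterior ends were silent or nearly so. Summed over clusters, paralog group 5 reached 6.82 and group 7 reached 6.08 CPM per kb, against 2.59 for group 4, 1.82 for group 3 and 1.72 for group 9. Group 10 summed to 0.316, group 11 to 0.00766 and group 13 to 0.0635 CPM per kb, and group 12 had no counts. The 8 genes at 0 counts in every library were Hoxa13, Hoxc10, Hoxc11, Hoxc12, Hoxc13, Hoxd1, Hoxd12 and Hoxd13. At the depth of the deepest library, a count of 0 allows up to 0.0838 CPM. Hoxd1 was the sole member of this set at the anterior end, where Hoxb1 had 2 to 15 counts. Hoxc10 shares 8.7% of its exonic bases with Hoxc5, and a read from shared bases can be assigned to either.

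The sequences just before the start of transcription are shown for the gene with the highest level (Hoxa5), for a gene whose libraries lay apart between the genotypes (Hoxb4), for a weakly expressed central gene (Hoxb8) and for a gene with no counts (Hoxd13). Of the 39 genes, 22 had an entry among the RefSeq promoters of GRCm38.p6, with 24 starts. The 250 bases before each start were searched on both strands for the letters TTTATG, a core that Cdx factors are known to bind, and for TGATTNAT, a composite site of Hox and Pbx proteins. Capitals mark TTTATG or its reverse complement, and TGATTNAT is in none of the 4 sequences.
Hoxa5: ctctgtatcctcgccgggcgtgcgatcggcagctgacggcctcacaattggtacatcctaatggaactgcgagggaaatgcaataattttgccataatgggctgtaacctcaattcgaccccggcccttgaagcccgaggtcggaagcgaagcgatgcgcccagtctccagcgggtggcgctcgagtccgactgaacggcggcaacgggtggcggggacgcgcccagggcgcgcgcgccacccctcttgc
Hoxb4: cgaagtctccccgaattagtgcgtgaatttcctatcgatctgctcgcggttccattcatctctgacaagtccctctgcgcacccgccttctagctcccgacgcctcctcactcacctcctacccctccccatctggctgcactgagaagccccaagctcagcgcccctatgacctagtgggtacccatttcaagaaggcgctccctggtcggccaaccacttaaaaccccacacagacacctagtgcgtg
Hoxb8: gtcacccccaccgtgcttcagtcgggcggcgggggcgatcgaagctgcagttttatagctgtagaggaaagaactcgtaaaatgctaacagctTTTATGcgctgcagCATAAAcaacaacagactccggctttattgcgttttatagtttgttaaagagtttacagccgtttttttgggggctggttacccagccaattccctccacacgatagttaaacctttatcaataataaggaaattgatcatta
Hoxd13: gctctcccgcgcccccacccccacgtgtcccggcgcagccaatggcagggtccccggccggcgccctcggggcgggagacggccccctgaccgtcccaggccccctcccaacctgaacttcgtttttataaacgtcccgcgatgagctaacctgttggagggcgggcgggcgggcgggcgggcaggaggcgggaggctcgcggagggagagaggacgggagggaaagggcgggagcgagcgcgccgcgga
The windows are chr6:52204588-52204837 on the minus strand for Hoxa5, chr11:96318017-96318266 on the plus strand for Hoxb4, chr11:96281655-96281904 on the plus strand for Hoxb8 and chr2:74667975-74668224 on the plus strand for Hoxd13, each ending at the base before the start, and no annotated exon lies in them.

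Hoxb8 held TTTATG in both orientations, from 157 to 152 and from 143 to 138 bases before its start. Among the 24 Hox starts, 5 (20.8%) held TTTATG and 2 (8.33%) held TGATTNAT, against 10.8% and 2.83% of all 32841 promoters of the same length. The starts with TTTATG were those of Hoxa7, Hoxb8, Hoxd3, Hoxd4 and an upstream start of Hoxd11, genes whose levels run from 0.00156 CPM per kb for Hoxd11 to 5.35 for Hoxa7. Hox promoters held a median of 12.5 CG dinucleotides in this window (range 2 to 35), against 6 over all promoters, with 28 for Hoxa5, 14 for Hoxb4, 12 for Hoxb8 and 31 for the silent Hoxd13. Among the genes with TTTATG, Hoxa7 was thus the only one of high level. Its window lies inside the annotated gene and, like those of Hoxd3 and the upstream Hoxd11 start, overlaps an annotated exon. A match is a description of the sequence and no evidence of a bound factor.

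Between the genotypes, no Hox gene reached an adjusted p under 0.01 in the quasi-likelihood test of edgeR, adjusted by the Benjamini-Hochberg method, and over all 16536 genes tested the share called was 0.0%. At an unadjusted p under 0.05 there were 2 of the 20 Hox genes (10%), Hoxb3 and Hoxb4, against 15.1% of all genes tested. Both were higher in ApcMin, where the share of all genes was 7.49%. The same 2 genes were those whose 3 ApcMin libraries lay apart from the 3 Apc1322T libraries, against 21.0% of all genes tested. DESeq2's Wald test called no Hox gene at an adjusted p under 0.01 among the 23 it adjusted, against 1.11% of 17503 genes. The shares of Hox genes were at or below the background, except among genes higher in ApcMin, where 2 genes set the share.

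The Hox genes had log2 fold changes on both sides of 0, with wide errors, and the count above 0 was near that of genes with like counts. The log2 fold change, ApcMin minus Apc1322T, was above 0 for 14 and below 0 for 6 of the 20 genes, with a median of 0.28 and a range from -0.77 (Hoxc5) to 2.29 (Hoxc8). The median over all genes tested was 0.017. Over the 7499 genes whose mean count lay in the range of the Hox genes (10.3 to 434 counts) it was 0.18, with 5058 above and 2441 below 0. The SD of log2 CPM between libraries of a genotype had a median of 0.54 over the Hox genes, 0.38 over the genes of that count range and 0.22 over all genes tested. The median of the Hox genes was -0.014 without Apc1322T replicate 2, 0.055 without ApcMin replicate 1, 0.12 without ApcMin replicate 2 and 0.42 without ApcMin replicate 3. With limma-voom it was 0.12.

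**Figure D2:**
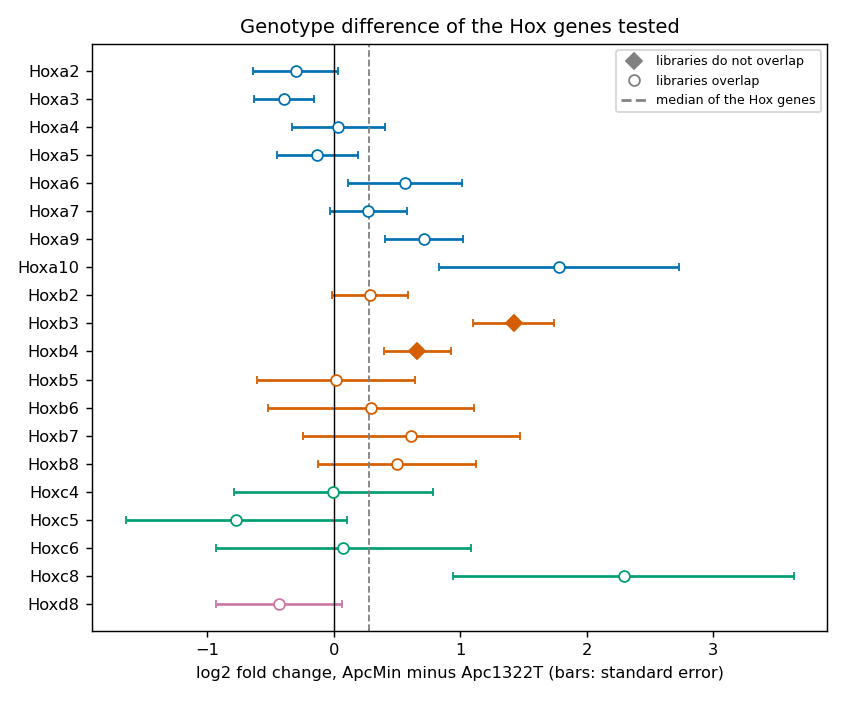
Log2 fold change of the 20 Hox genes tested, ApcMin minus Apc1322T, with standard errors as bars and colours for the clusters. Filled diamonds are Hoxb3 (1.42) and Hoxb4 (0.66), the genes whose libraries do not overlap between the genotypes, and the dashed line is the median of the Hox genes, 0.28.

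Hoxb3 had the smallest p of the Hox genes and was higher in all 3 ApcMin libraries, although it did not pass the threshold. Hoxb3 (chr11:96323326-96347930) and Hoxb4 (chr11:96318267-96321638) are neighbours in the anterior part of the Hoxb cluster, and are both known from the patterning of the hindbrain and from blood progenitor cells. The log2 CPM of Hoxb3 was 0.52, -0.035 and 0.72 in Apc1322T replicates 1, 2 and 3 and 1.74, 1.50 and 2.13 in ApcMin replicates 1, 2 and 3, from 37, 19 and 36 counts against 117, 70 and 136. Every ApcMin library thus lay above every Apc1322T library, and the lowest of the former exceeded the highest of the latter by more than the SDs of 0.39 and 0.32. The fold change was 1.42 on the log2 scale, with a standard error (SE) of 0.32 and an edgeR adjusted p of 0.257. DESeq2's Wald test gave an adjusted p of 0.0126, the smallest of any alternative. The largest was 0.69, by edgeR without Apc1322T replicate 2. The log2 fold change stayed between 1.23 and 1.59 with each library left out in turn. Exons of the antisense gene Hoxb3os, not analysed here, cover 52.9% of the exonic bases of Hoxb3, and those of Hoxb2 to 27.3%. The library kit keeps the strand of the RNA, but whether the authors' counting used it is not given in the sources used here.

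Hoxb4 differed in the same direction by a smaller amount. Its log2 CPM was 1.52, 1.05 and 1.55 in Apc1322T replicates 1, 2 and 3 and 2.35, 1.87 and 1.83 in ApcMin replicates 1, 2 and 3. The groups do not overlap, with the highest Apc1322T library 0.28 below the lowest ApcMin library. The log2 fold change of 0.66 (SE 0.27) had an adjusted p of 0.319 by edgeR and stayed between 0.47 and 0.76 when single libraries were omitted. Of its exonic bases, none is covered by an annotated exon of either strand of another gene.

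The other Hoxb genes overlapped between the genotypes, although all 7 genes tested in the cluster had a log2 fold change above 0 by edgeR (with limma-voom Hoxb5 and Hoxb6 were below 0). Hoxb2, the anterior neighbour of Hoxb3, had a log2 CPM of 1.23, 0.71 and 1.15 in Apc1322T and 1.69, 1.06 and 1.15 in ApcMin replicates 1, 2 and 3, and its log2 fold change was 0.29 (SE 0.30). For the central genes Hoxb5, Hoxb6, Hoxb7 and Hoxb8 the fold changes of 0.019, 0.29, 0.61 and 0.50 were smaller than their standard errors of 0.62, 0.81, 0.86 and 0.62. These 4 genes shared an order among the ApcMin libraries. On the CPM scale, ApcMin replicate 1 was the highest of the 6 libraries for each of them, with 80, 45, 70 and 36 counts, and ApcMin replicate 3 the lowest, with 17, 3, 10 and 8 counts. For Hoxb7 it lay close to Apc1322T replicate 2, at 0.316 against 0.333 CPM. Without ApcMin replicate 3 their log2 fold changes were 0.38, 0.82, 1.09 and 0.91, with edgeR adjusted p from 0.555 to 0.827. Without ApcMin replicate 1 they were -0.71, -0.24, 0.26 and 0.17, so that the direction rests on single libraries for Hoxb5 and Hoxb6. Hoxb9, next in the cluster, had 32 counts in ApcMin replicate 1 and 2 to 8 in the other 5 libraries, and was not tested.

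**Figure D3:**
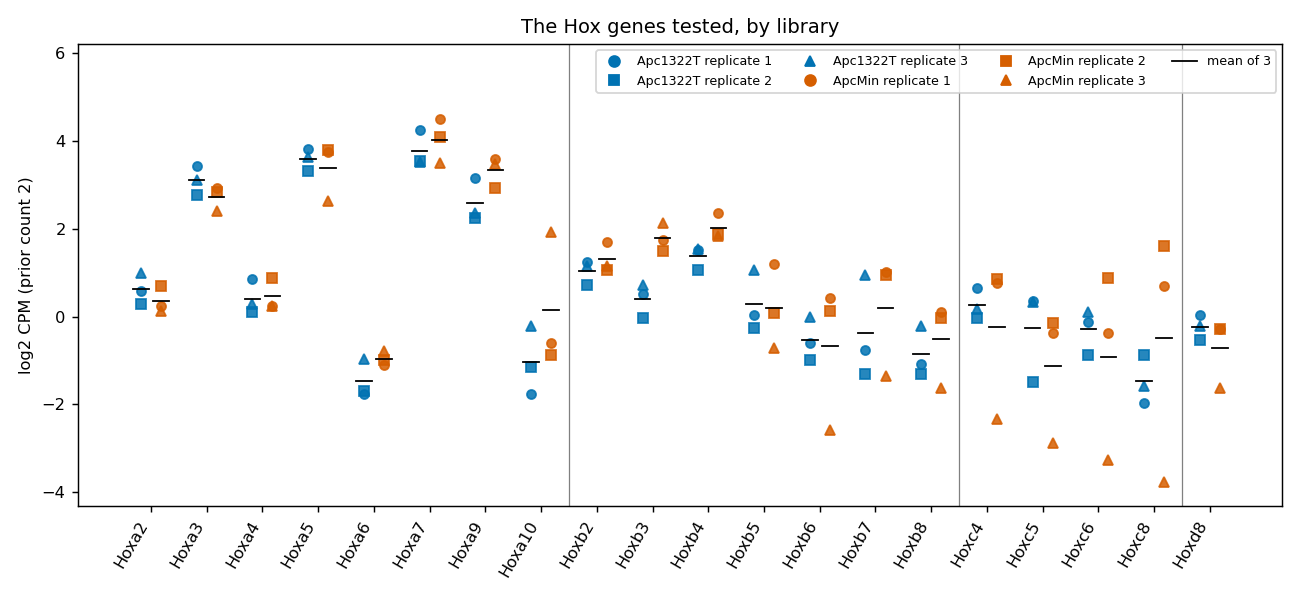
Log2 CPM of the 20 Hox genes tested, with a point for each library (blue Apc1322T, orange ApcMin, shapes for replicates) and the mean of 3 libraries as a line. ApcMin replicate 3 (orange triangle) is at the bottom for Hoxa2, Hoxa3, Hoxa5, Hoxa7, Hoxb5 to Hoxb8, all 4 Hoxc genes and Hoxd8. It is at the top for Hoxa6 (-0.79), Hoxa10 (1.92) and Hoxb3 (2.13).

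In the Hoxa cluster, the largest log2 fold changes were those of the posterior genes Hoxa10 and Hoxa9, and neither passed the threshold. Hoxa9, a posterior factor best known from blood progenitors and leukaemia, had a log2 CPM of 3.16, 2.24 and 2.37 in Apc1322T and 3.58, 2.93 and 3.48 in ApcMin replicates 1, 2 and 3. The groups overlapped through Apc1322T replicate 1, which exceeded ApcMin replicate 2. The log2 fold change was 0.71 (SE 0.31), with an adjusted p of 0.338 by edgeR. Over the alternatives the adjusted p ran from 0.0820 without Apc1322T replicate 1 to 0.721 without Apc1322T replicate 2, both by edgeR.

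Hoxa10, the next gene towards the posterior end, was high in a single library. It had 6, 8 and 18 counts in Apc1322T and 21, 12 and 117 in ApcMin replicates 1, 2 and 3. The log2 CPM of ApcMin replicate 3 was 1.92, whereas the other 5 libraries lay between -1.77 and -0.22. The log2 fold change of 1.78 (SE 0.95, adjusted p = 0.403 by edgeR) was 0.21 without ApcMin replicate 3. Hoxa11, which follows Hoxa10, had 3 counts in ApcMin replicate 1 and 0 elsewhere, and Hoxa13 had none, so that RNA of the posterior neighbours of Hoxa10 was not detected in ApcMin replicate 3.

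The strongly expressed Hoxa genes had small log2 fold changes and overlapping libraries. Hoxa7 had a log2 CPM of 4.23, 3.54 and 3.52 in Apc1322T and 4.48, 4.09 and 3.50 in ApcMin replicates 1, 2 and 3, with a log2 fold change of 0.27 (SE 0.31) that was 0.50 without ApcMin replicate 3 and 0.016 without ApcMin replicate 1. Hoxa5 had 3.80, 3.31 and 3.63 in Apc1322T and 3.73, 3.79 and 2.63 in ApcMin, with a log2 fold change of -0.13 (SE 0.32) that became 0.16 without ApcMin replicate 3. For both genes the libraries of the genotypes are interleaved. Hoxa3, an anterior gene with roles in thymus and parathyroid development, had 3.42, 2.77 and 3.10 in Apc1322T and 2.92, 2.83 and 2.39 in ApcMin, and its log2 fold change of -0.39 (SE 0.23) had the smallest error of the 20 genes. It was -0.25 without ApcMin replicate 3 and -0.21 without Apc1322T replicate 1.

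Of the weakly expressed Hoxa genes, Hoxa2 ranged from 0.28 to 1.00 on the log2 CPM scale in Apc1322T and from 0.12 to 0.68 in ApcMin. Hoxa4 ranged from 0.10 to 0.85 in Apc1322T and from 0.24 to 0.88 in ApcMin, and Hoxa6 from -1.77 to -0.97 and from -1.11 to -0.79. Their log2 fold changes were -0.30 (SE 0.34), 0.038 (0.36) and 0.57 (0.45), and the libraries of the genotypes overlapped for each. That of Hoxa2 was -0.18 without ApcMin replicate 3 and -0.084 without Apc1322T replicate 3. Part of these counts can belong to other transcripts, since 15.0% of the exonic bases of Hoxa2 and 8.0% of those of Hoxa3 are shared with the annotated readthrough gene Gm28308, 1.5% of those of Hoxa9 with Mir196b, and 20.4% of those of Hoxa7 and 25.4% of those of Hoxa3 are covered by exons of the opposite strand.

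The Hoxc cluster varied most between libraries of a genotype, with a median SD of log2 CPM of 1.42 over its 4 tested genes, against 0.79 for Hoxb and 0.41 for Hoxa. This spread lay mainly in ApcMin, with SDs from 1.51 (Hoxc5) to 2.88 (Hoxc8). In Apc1322T the SDs were 0.36, 1.05, 0.51 and 0.56 for Hoxc4, Hoxc5, Hoxc6 and Hoxc8. Hoxc8, a central gene known from the patterning of the thoracic skeleton, had 5, 10 and 6 counts in Apc1322T replicates 1, 2 and 3, 55 and 76 in ApcMin replicates 1 and 2, and 0 in ApcMin replicate 3. The ApcMin libraries therefore held the highest and the lowest values, with an SD of 2.88 on the log2 CPM scale. The log2 fold change of 2.29 (SE 1.35) was the highest of the Hox genes and had an adjusted p of 0.434 by edgeR. It was 2.88 without ApcMin replicate 3 and 1.34 without ApcMin replicate 2, with adjusted p of 0.475 and 0.690 by edgeR. With limma-voom, on all libraries, it was 0.42.

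The other Hoxc genes were also nearly absent from ApcMin replicate 3. Hoxc4 had 4 counts there and 19 to 58 in the other 5 libraries, Hoxc5 had 2 against 6 to 33, and Hoxc6 had 1 against 10 to 45. With all libraries their log2 fold changes were -0.0017 (SE 0.79) for Hoxc4, -0.77 (0.87) for Hoxc5 and 0.076 (1.01) for Hoxc6. Without ApcMin replicate 3 the values were 0.53, -0.24 and 0.65. Without ApcMin replicate 2 those of Hoxc5 and Hoxc6 were -1.21 and -1.06. Hoxc9 did not share this pattern, with 2, 1 and 9 counts in Apc1322T and 3, 6 and 11 in ApcMin replicates 1, 2 and 3, but at these counts a difference is not detectable. The genes from Hoxc10 to Hoxc13 had 0 counts in every library.

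In the Hoxd cluster, Hoxd8 had 26, 13 and 18 counts in Apc1322T and 27, 19 and 8 in ApcMin replicates 1, 2 and 3. Its log2 fold change of -0.43 (SE 0.50) was -0.073 without ApcMin replicate 3. It was the only Hoxd gene that passed the filter. Among those that did not, the most counts were those of Hoxd4, with 1, 0 and 1 counts in Apc1322T and 8, 5 and 6 in ApcMin, and Hoxd9, with 0, 3 and 0 counts against 7, 4 and 2. Hoxd3, Hoxd10 and Hoxd11 had at most 2 counts in any library. Hoxd4 shares 52.3% of its exonic bases with Hoxd3 and the readthrough gene Gm28230, so that its few counts are uncertain.

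Hoxb13, the most posterior Hoxb gene and a marker of hindgut and prostate, had 14 counts in Apc1322T replicate 2, 4 in replicate 3, and 0 in replicate 1 and in all ApcMin libraries. Hoxb1 had 6, 5 and 14 counts in Apc1322T and 15, 2 and 7 in ApcMin. When the filter on low counts was dropped, 31 Hox genes were fitted and 5 reached an unadjusted p under 0.05, among them Hoxd4 (log2 fold change 2.69), Hoxb13 (-5.92, a value that depends on the prior count) and Hoxa9, beside Hoxb3 and Hoxb4. The adjusted p values of these 5 genes by edgeR then ran from 0.278 to 0.453.

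Summed by cluster, the Hox RNA of the genotypes overlapped in all 4 clusters. The Hoxa cluster amounted to 44.8 ± 10.5 CPM (SD, n = 3) in Apc1322T and 49.5 ± 9.24 CPM (SD, n = 3) in ApcMin adenomas, and the Hoxd cluster to 0.873 ± 0.138 and 0.986 ± 0.388 CPM. The Hoxb cluster amounted to 9.32, 7.32 and 13.3 CPM in Apc1322T and to 19.2, 13.5 and 11.5 CPM in ApcMin replicates 1, 2 and 3, a log2 ratio of the means of 0.56 with overlapping libraries. This ratio was 0.32 without ApcMin replicate 1 and 0.82 without Apc1322T replicate 3. The Hoxc cluster ranged from 2.19 to 3.90 CPM in Apc1322T and was 4.64, 7.55 and 0.569 CPM in ApcMin replicates 1, 2 and 3. Its log2 ratio of 0.37 was 0.88 without ApcMin replicate 3 and -0.34 without ApcMin replicate 2, so that its sign rests on single libraries. All 39 genes together gave 59.0 ± 12.1 CPM (SD, n = 3) in Apc1322T and 69.4 ± 15.6 CPM (SD, n = 3) in ApcMin.

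**Figure D4:**
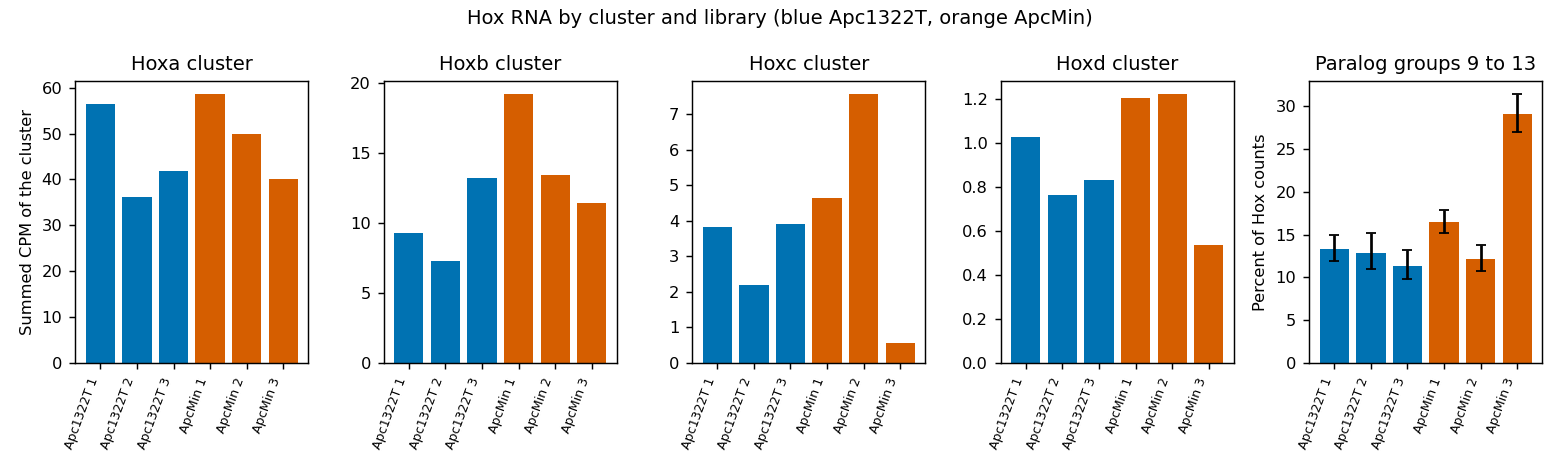
Summed CPM of each Hox cluster in the 6 libraries (4 panels on the left, bars from 0), and the percent of Hox counts from paralog groups 9 to 13 with 95% Wilson intervals (right panel). The Hoxc bar of ApcMin replicate 3 is the lowest at 0.569 CPM, and the posterior share of the same library is the highest at 29.1%.

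The share of Hox counts from the posterior groups 9 to 13 was 13.3%, 12.9% and 11.3% in Apc1322T and 16.5%, 12.2% and 29.1% in ApcMin replicates 1, 2 and 3. ApcMin replicate 3 lay above all other libraries, with a 95% Wilson interval from 27% to 31.4% that covers counting error only. The next highest was ApcMin replicate 1, from 15.2% to 17.8%. The means were 12.5% ± 1.03 (SD, n = 3) in Apc1322T and 19.3% ± 8.82 (SD, n = 3) in ApcMin, and the latter was 14.3% without ApcMin replicate 3. In that library Hoxa9 and Hoxa10 together supplied 468 of the 485 posterior counts, while the central groups 4 to 8 made up 46.1% of Hox counts, against 63.0% to 63.6% in the Apc1322T libraries and up to 68.6% in ApcMin. The anterior groups 1 to 3 gave 24.3% ± 0.733 (SD, n = 3) in Apc1322T and 20.9% ± 3.32 (SD, n = 3) in ApcMin.

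Some genes that mark regions of the small intestine also differed among the ApcMin libraries, and their values are given beside the Hox genes. Fabp6, an ileal bile acid binding protein, had a log2 CPM of 6.99 and 6.37 in ApcMin replicates 1 and 2, the libraries with the highest Hoxc8. It had 0.075 in ApcMin replicate 3 and -0.86 to -0.53 in the Apc1322T libraries. Slc10a2, the ileal bile acid transporter, had 6.04 and 6.29 in the same 2 libraries, 2.18 in ApcMin replicate 3 and 2.01 to 3.11 in Apc1322T. The other 2 ileal markers, subunits of the basolateral bile acid transporter, did not follow this order. Slc51a had a log2 CPM of 5.50, 6.54 and 6.83 in Apc1322T and 6.64, 6.75 and 5.36 in ApcMin replicates 1, 2 and 3, and Slc51b had 3.51, 4.83 and 5.03 against 4.46, 5.18 and 3.67. Both had overlapping libraries, with log2 fold changes of -0.017 (SE 0.46) and -0.027 (SE 0.51). Pdx1, a ParaHox factor of the duodenum, was lowest in ApcMin replicate 2 (2.10) and Apc1322T replicate 3 (3.51) and between 4.82 and 5.29 in the other 4 libraries. The 4 duodenal markers summed to 1982 CPM in ApcMin replicate 3 and to 325 CPM in ApcMin replicate 2, against 417 to 1397 CPM in Apc1322T. Cybrd1 alone gave 1654 CPM in ApcMin replicate 3 and 106 CPM in ApcMin replicate 2. Pdx1, Gata4 and Onecut2 were each higher in Apc1322T replicate 2 (38.9, 125 and 200 CPM) than in ApcMin replicate 3 (37.2, 95.2 and 195 CPM). Where along the intestine the adenomas of each sample lay is not given in the sources used here, and its part in the Hox values was not tested.

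**Figure D5:**
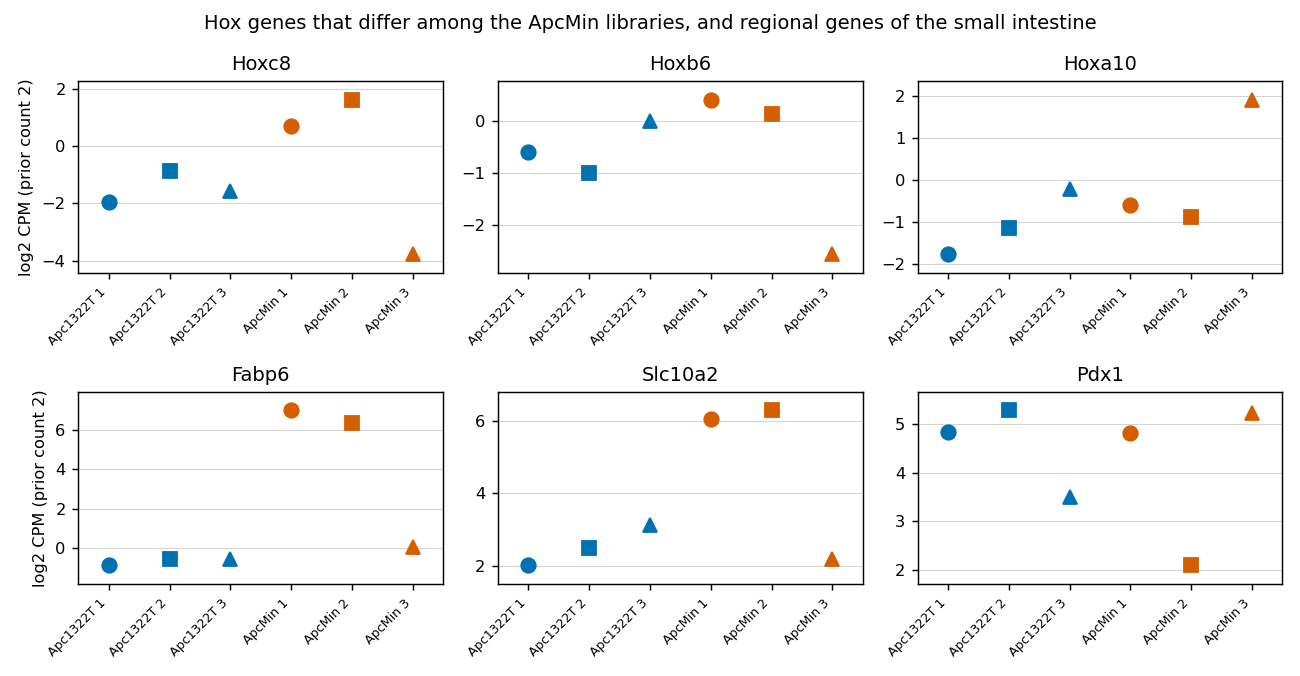
Log2 CPM of Hoxc8, Hoxb6 and Hoxa10 (top row) and of the regional genes Fabp6, Slc10a2 and Pdx1 (bottom row) in the 6 libraries, each panel with its own axis. ApcMin replicate 3 is lowest for Hoxc8 and Hoxb6 and highest for Hoxa10 (1.92), and Fabp6 is high in ApcMin replicates 1 and 2 (6.99 and 6.37) but not in replicate 3 (0.075).

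Markers of stromal cells, in which Hox genes can be active, lay on the side of ApcMin and epithelial markers on the side of Apc1322T, with no call among them by edgeR. DESeq2's Wald test called the fibroblast gene Pdgfra (adjusted p = 0.00656) and the endothelial cadherin Cdh5 (adjusted p = 0.00676), both higher in ApcMin. Over the 17503 genes it adjusted, the share called was 1.11%. All 7 fibroblast markers had a log2 fold change above 0 (median 1.00, 2 at an unadjusted p under 0.05), and they summed to 626 to 1563 CPM in Apc1322T and 1012 to 3361 CPM in ApcMin. The same held for all 6 smooth muscle markers (median 0.69, 2 at that p, sums of 127 to 255 against 276 to 402 CPM) and all 4 endothelial markers (median 0.48, 1 at that p, 78.0 to 120 against 120 to 170 CPM). All 6 epithelial markers were below 0 (median -0.37, 4 at that p, 10824 to 12762 against 8636 to 10175 CPM). Over all genes tested by edgeR, 15.1% were at that p. Pdgfra, a receptor of intestinal fibroblasts, did not overlap between the genotypes, at 4.82 to 5.72 in Apc1322T and 6.17 to 6.44 in ApcMin on the log2 CPM scale. Like Hoxb3 and Hoxb4 it belonged to the 21.0% of genes tested whose libraries lay apart between the genotypes. Within ApcMin, Pdgfra and Hoxb3 were highest in replicate 3, and Hoxb4 was lowest there. The part of the stromal share in the values of Hoxb3 to Hoxb8 was not tested. The highest fibroblast sum, in ApcMin replicate 1, coincided with the highest Hoxb4, Hoxb5, Hoxb6, Hoxb7 and Hoxb8. That library also had the highest leukocyte sum, 318 CPM against 74.1 to 103 CPM in the others. The next highest fibroblast sum was that of Apc1322T replicate 1 (1563 CPM). Its Hoxb4 to Hoxb8 were all lower than in ApcMin replicate 2, where the fibroblast sum was 1012 CPM. Hoxb3 was highest in ApcMin replicate 3, at a fibroblast sum of 1477 CPM.

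Of the other markers, 5 of 8 genes of enteric neurons and glia were tested (median log2 fold change 0.62, 1 at an unadjusted p under 0.05), and the defining genes Sox10 and Elavl4 had at most 21 counts in any library. The 5 leukocyte markers had a median of 0.55 with 0 at that p, the 4 ileal markers 1.51 with 2, the 4 duodenal markers -0.10 with 0 and the 2 colon markers tested 1.20 with 1. The share at that p over all genes tested by edgeR was 15.1%. The colon gene Car1 had at most 2 counts, and the adenoma genes Lgr5, Sox9, Axin2 and Ascl2 were all present (median -0.21, 1 at that p). No gene of these lists was called at an adjusted p under 0.01 by edgeR, and DESeq2's Wald test called Fabp6 (adjusted p = 0.000248) beside Pdgfra and Cdh5. DESeq2 called 1.11% of all genes it adjusted.

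The cofactors and regulators of Hox genes were followed as lists, and no member of any list was called at an adjusted p under 0.01 by edgeR. At an unadjusted p under 0.05 there were 6 of the 65 genes tested, or 9.23%, against 15.1% of all genes. Members whose libraries lay apart between the genotypes are named below, beside a share of 21.0% over all genes tested. All 9 TALE homeodomain cofactors, which bind DNA together with Hox proteins, were tested, with 6 above and 3 below 0 and 2 at that p. Meis3 had a log2 CPM of 2.03, 1.62 and 2.10 in Apc1322T and 2.74, 2.73 and 2.69 in ApcMin replicates 1, 2 and 3, without overlap, and a log2 fold change of 0.80 (SE 0.20, adjusted p = 0.263 by edgeR). Meis1 did not overlap either, at 0.93, 0.91 and 1.59 against 2.18, 1.85 and 1.89, with a log2 fold change of 0.83 (SE 0.28). Pknox2 and Pbx4 had log2 fold changes of 1.04 (0.60) and 0.95 (0.61) from few counts, and the abundant Pbx2 and Pbx3 had -0.058 (0.092) and 0.089 (0.10).

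Among the ParaHox, Cdx and Evx genes, relatives of the Hox genes that lie outside the clusters or beside them, 5 of 8 were tested. Cdx2, an activator of Hox genes and of intestinal identity, had a log2 CPM of 6.90, 7.20 and 7.24 in Apc1322T and 6.77, 6.84 and 6.19 in ApcMin replicates 1, 2 and 3. The ApcMin libraries lay below the others without overlap, and the lowest Cdx2 was that of ApcMin replicate 3. In that library Hoxc4, Hoxc5, Hoxc6 and Hoxc8 were lowest, whereas Hoxa6, Hoxa10 and Hoxb3 were highest. A link of Cdx2 to these Hox values was not tested. The log2 fold change of Cdx2, -0.49 (SE 0.19), had an adjusted p of 0.312 by edgeR, and that of Cdx1 was -0.11 (0.23). The epithelial markers Epcam (-0.39), Cdh1 (-0.32), Cldn7 (-0.42) and Krt8 (-0.34) were also lower in ApcMin without overlap. Krt18 (-0.077) and Vil1 (-0.60) were lower with overlap. Over all genes tested, the libraries of 21.0% lay apart between the genotypes. Gsx2 rested on 2 to 8 counts in Apc1322T and 19 to 44 in ApcMin, without overlap, and had a log2 fold change of 2.31 (0.62). Evx1, which adjoins the Hoxa cluster, had -0.76 (0.43). Cdx4, Evx2 and Gsx1 had no counts.

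Of the 16 retinoic acid genes 12 were tested, 8 above and 4 below 0, and 1 at an unadjusted p under 0.05. That gene was Cyp26a1, an enzyme that degrades retinoic acid, with 40, 10 and 8 counts in Apc1322T and 78, 51 and 233 in ApcMin replicates 1, 2 and 3. Its log2 fold change was 2.30 (SE 0.76, adjusted p = 0.288 by edgeR), and its highest value was that of ApcMin replicate 3. Its libraries lay apart between the genotypes. The others with the smallest p were Cyp26b1 at 0.86 (0.41), Aldh1a1 at -1.03 (0.48) and Rxra at -0.37 (0.17). All 26 Polycomb genes were tested, 19 above and 7 below 0 with a median of 0.13, and Cbx6 was the member at that p, with a log2 fold change of 0.46 (0.14) and libraries that did not overlap. Pcgf6, Pcgf2 and Mtf2 had 0.27 (0.13), 0.27 (0.13) and 0.15 (0.083), and Mtf2 did not overlap either. Of the 13 trithorax and H3K27 demethylase genes none was at that p, with Psip1 at 0.18 (0.081), Kmt2b at 0.20 (0.10), Kdm6a at 0.13 (0.094) and Dot1l at -0.16 (0.12). Psip1 and Dpy30, at -0.11 (0.080), did not overlap between the genotypes.

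Outside the clusters, the nearest tested protein-coding gene on each side was followed for comparison. These 8 neighbours lay 52.6 to 199 kb from the outermost Hox gene, and 2 were above and 6 below 0. Skap2, beside the Hoxa cluster, and Atp5g1, beyond Hoxb13, were lower in ApcMin without overlap, at log2 fold changes of -0.30 (0.10) and -0.21 (0.088). Calcoco1, beyond Hoxc13, was higher without overlap at 0.23 (0.099). These are 3 of the 8 neighbours, against 21.0% of all genes tested whose libraries lay apart. An unadjusted p under 0.05 by edgeR was reached by 2 of the 8, against 15.1% of all genes tested. Skap1 (-0.19), beside Hoxb1, Smug1 (0.15), Lnpk (-0.11), Mtx2 (-0.16) and Evx1 overlapped. The smallest adjusted p of the neighbours was 0.288 by edgeR. Of the other annotated genes inside the clusters, 4 were used here, and Gm28308 (log2 fold change -0.83, SE 0.36) and the pseudogene Gm11539 (0.35, 0.55) were tested. 5730596B20Rik had 3 to 11 counts and Gm28230 had none. The noncoding and antisense genes of the clusters were not analysed here.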

How the data were processed

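RNA-seq of intestinal adenomas was analysed for 3 Apc1322T and 3 ApcMin libraries. The authors quantified single-end reads of 50 base pairs with Salmon against the GRCm38 transcriptome, and deposited estimated counts per gene, without scaling for depth or length. The estimated counts were rounded, and symbols, coordinates and exon lengths came from GENCODE M21. Genes kept by filterByExpr (minimum count 10, minimum total 15) were normalised by TMM and compared between genotypes in edgeR 4.0.16 (robust quasi-likelihood fit and F test) in R 4.3.3, with Benjamini-Hochberg adjustment over 16536 genes. Alternatives were DESeq2 1.42.0, limma-voom (limma 3.58.1), other normalizations and filters, a replicate block and leaving out each library. The procedures were tested on simulated counts. Nothing states that samples of a group came from different mice, so p-values measure the spread between samples. All Hox genes tested were named. Of each cofactor or regulator list, the 4 genes with the smallest p or fewer were named, with the nearest neighbours of each cluster. Pbx2, Pbx3, Dpy30, marker genes and those called by library values were named after their values were seen. The rule for members uses no measured value, but the gene family and the lists were chosen with earlier results of these data known. A few genes of the table are not reported here. Promoter sequences are from RefSeq (GRCm38.p6).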

Additional observations from a re-analysis of the deposited data

How the results depend on the processing

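The count of Hox genes at an adjusted p under 0.01 was 0 under every alternative run. The number kept was 31 with genes of at least 1 count and 12 with 1 CPM in 3 libraries. Without the filter, 5 genes had an unadjusted p under 0.05, and 1 to 3 with each library left out, and libraries of the genotypes lay apart for 2 to 7 genes with each library left out (7 without ApcMin replicate 3), where fewer samples make this easier. The posterior share was 7.33% in Apc1322T and 11.9% in ApcMin per kilobase. The lists of cofactors and regulators had 10 genes at that p with upper quartile scaling and 2 to 14 with each library left out (14 without Apc1322T replicate 1, 2 without Apc1322T replicate 2). Log2 fold changes near 0 changed sign: with limma-voom those of Hoxb6 (-0.28), Hoxa4 (-0.0058), Hoxc6 (-1.04) and Hoxb5 (-0.068), and Hoxc4 with upper quartile scaling (0.052) and with the 1 CPM filter (0.0030). With each library left out they ran from -0.24 to 0.82 for Hoxb6, from -0.22 to 0.32 for Hoxa4, from -1.06 to 0.65 for Hoxc6, from -0.32 to 0.16 for Hoxa5, from -0.71 to 0.54 for Hoxb5 and from -0.39 to 0.53 for Hoxc4. The cause was not tested. The replicate numbers did not pair the samples (correlations of the deviations of same-numbered libraries -0.014, 0.16 and -0.29). With the replicate block the Hox genes at an adjusted p under 0.01 stayed at 0 and Hoxc6 (-0.48) and Hoxb5 (-0.057) changed sign. The weakly counted Hoxb5 to Hoxb8, Hoxc and Hoxd genes are limited by depth and by the spread between libraries.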
